A study of Nannochloropsis oceanica with 6 samples.

Results

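Knockout line 2 of the NoPAC4 knockout mutants was compared with the wild type (WT) across all genes of the alga Nannochloropsis oceanica. The comparison was taken from the sample titles and held 4 of the 6 libraries of the series, 2 of line 2 and 2 of WT. All libraries were made from strain IMET1 and from polyadenylated RNA, with 2 µg of RNA each, after 5 days in low light. The genotype label was NoPAC4 knockout for line 2 and wild type for the controls, and no other allele or agent was given for either group. Light was continuous at 50 µmol photons per square metre per second. The treatment text gives 23 °C and the growth text 25 °C. The remaining 2 libraries, of knockout line 1, entered the common estimate of the spread and a direct test of the difference between the lines, and a few of their values are set beside those of line 2. The labels do not say how the knockouts were made, whether line 2 is 1 clone, or what NoPAC4 encodes. They also do not say whether the replicates were separate cultures, so every p-value below measures only the spread between these libraries, which may be technical.

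N. oceanica is a unicellular marine alga of the heterokont lineage that is studied for its storage of oil. Most of its genes lie in the nucleus. Its plastid keeps a small genome with genes for core proteins of the photosystems, ATP synthase, the plastid RNA polymerase and ribosomes, and its mitochondrion keeps genes for subunits of the respiratory chain. Selection for polyadenylated RNA recovers mostly nuclear messenger RNA, so organelle transcripts are poorly sampled in such libraries. The nuclear genes of the deposited table carry IDs made of a prefix from NO01 to NO30 and a number, and none of these 10333 IDs was paired with a gene name in the sources used here. Nuclear genes are therefore described by ID, level and change, without a function. The level of NoPAC4 itself was not analysed here, so the knockout could not be checked against its label.

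Total reads assigned to genes were 13956855 and 14052394 in replicates 1 and 2 of line 2, and 16311248 and 16045369 in replicates 1 and 2 of WT. Of 10493 gene IDs, 9712 passed the filter on low counts and were tested, and 781 did not. Levels of 1 gene in different libraries are given as CPM, counts scaled to 1000000 per library after TMM factors, or as estimated reads. Levels of different genes are compared only in TPM, the deposited transcript measure that sums to 1000000 per library and also divides by transcript length. All changes are relative to the bulk of the transcripts in each library, so a change in total RNA per cell would not be seen. The libraries were made from whole cultures, in which fewer cells making a transcript and less of it per cell cannot be told apart.

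Line 2 and WT had close to the same level for most transcripts. Fitted log2 changes of at least 0.5 were mostly toward lower transcripts in line 2, but no lower gene passed the adjusted threshold given below. The median log2 change over the 9712 tested genes was 0.01, with 5069 genes above 0 and 4643 below. The middle of the distribution was symmetric, with the percentiles 25 and 75 at -0.14 and 0.14. Its tails were not. Percentile 5 lay at -0.63 and percentile 95 at 0.37. A log2 change of at least 0.5 was seen upward in 250 genes and downward in 770. At a log2 change of at least 1 the numbers were 46 and 100. Past a log2 change of 2 the order turned, with 17 genes higher and 11 lower, most of them at very low counts. Among the 8917 genes with a mean of at least 5 CPM over the 4 libraries, 122 were higher and 589 lower by a log2 of at least 0.5, 8 and 40 by at least 1, and 4 and 1 by at least 2.

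**Figure D1:**
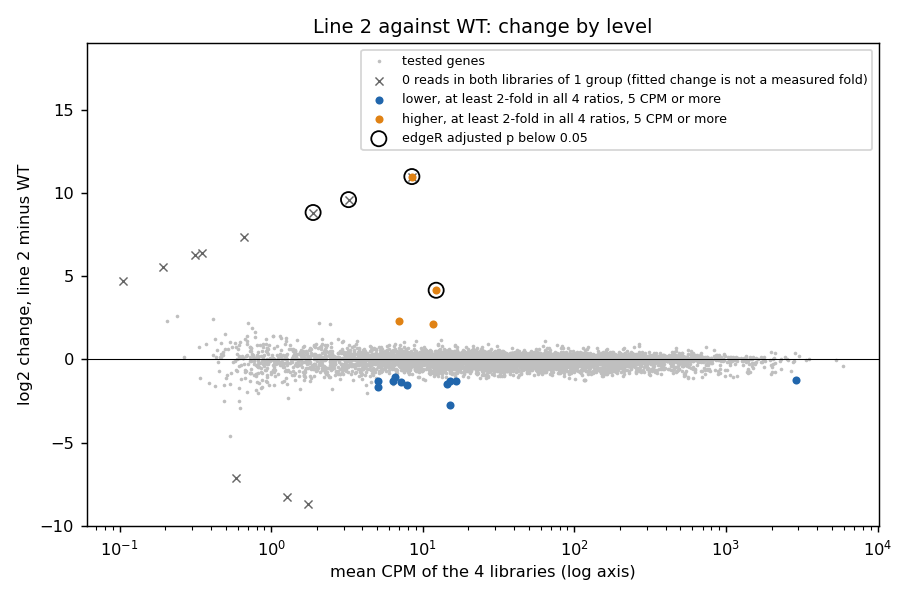
The log2 change in line 2 against WT (vertical axis) is plotted against the mean CPM of the 4 libraries (horizontal log axis), with 1 point for each of the 9712 tested genes. Filled points mark genes that differed at least 2-fold in all 4 ratios of a line 2 library to a WT library, circles mark the 4 genes with an edgeR adjusted p below 0.05, and crosses mark genes with 0 reads in both libraries of 1 group, whose fitted change is not a measured fold. At 5 CPM or more, 589 genes were lower and 122 higher by a log2 of at least 0.5. By a log2 of at least 2, 1 was lower and 4 were higher.

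Only 4 genes, 0.0412% of those tested, differed between line 2 and WT in edgeR's quasi-likelihood test once p was adjusted by Benjamini-Hochberg and set against 0.05, and all 4 were higher in line 2. None was lower at that threshold, and the smallest edgeR adjusted p of a lower gene was 0.0941. With the unadjusted p set against 0.05, line 2 had 303 higher genes (3.12%) and 841 lower genes (8.66%), where 485.6 in both directions together would be the share of the threshold itself. Lower genes made up 73.5% of these genes. DESeq2 called 36 genes higher and 338 lower at the same adjusted p, and edgeR's likelihood ratio test called 55 and 381, so the tilt toward lower transcripts was present under both, while the number of calls depended on the test. limma-voom with a weight for each group called 0 genes, with 139 higher and 623 lower at an unadjusted p below 0.05. The count of 4 fell to 1 without line 2 replicate 1 and to 1 without line 2 replicate 2. It rose to 1541 without WT replicate 1 and to 651 without WT replicate 2. Single libraries moved the unadjusted counts in the same way. They were 109 higher and 426 lower without line 2 replicate 1, and 151 and 677 without line 2 replicate 2. Leaving out WT replicate 1 gave 1469 and 1723, and leaving out WT replicate 2 gave 1104 and 1308. Lower genes outnumbered higher genes in each of these fits, by the least where a WT library was left out.

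The WT libraries differed from each other more than the line 2 libraries did. Among genes with at least 5 CPM, 880 were at least 1.5-fold higher and 768 at least 1.5-fold lower in WT replicate 2 than in WT replicate 1. Between the replicates of line 2 the same counts were 119 and 80. The SD of the log2 ratio was 0.46 between the WT replicates and 0.24 between the line 2 replicates. In ratios of 1 library to another, line 2 replicate 1 had 209 genes higher and 538 lower by 1.5-fold than WT replicate 1, and 695 higher and 1006 lower than WT replicate 2. Line 2 replicate 2 had 441 higher and 431 lower than WT replicate 1, and 277 higher and 509 lower than WT replicate 2. The excess of lower genes was thus seen in 3 of the 4 ratios and was absent from the ratio of line 2 replicate 2 to WT replicate 1. The SD of these 4 log2 ratios ran from 0.35 to 0.46, no wider, to 2 decimals, than between the WT replicates.

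**Figure D2:**
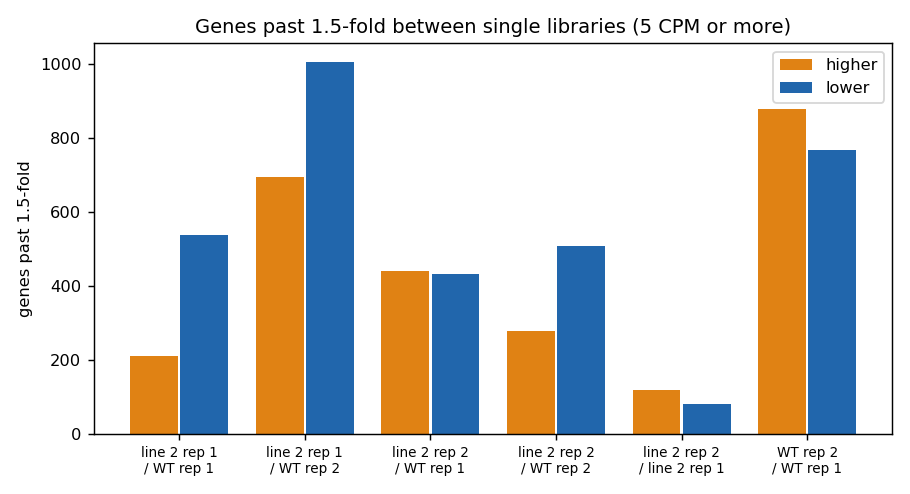
Bars give the number of genes (vertical axis, starting at 0) that were at least 1.5-fold higher or lower in the first library of each pair, among 8917 genes with a mean of at least 5 CPM. The pair of WT replicates, with 880 and 768 genes, was as far apart as any pair but line 2 replicate 1 against WT replicate 2, with 695 and 1006, and the pair of line 2 replicates was the closest, with 119 and 80.

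The genes at an unadjusted p below 0.05 were chosen on the difference itself, so their sizes are a description. The 841 lower genes had a median log2 change of -0.61. Of these, 458 were past 1.5-fold and 72 past 2-fold. The 303 higher genes had a median log2 change of 0.45, with 92 past 1.5-fold and 29 past 2-fold. In all of them the 2 line 2 libraries lay on the same side of the 2 WT libraries. Over all tested genes, the libraries did not overlap in this way for 1687 genes (17.4%) with line 2 higher and for 1751 genes (18.0%) with line 2 lower. The lower genes were a sizeable part of the transcriptome. They held 15.8% and 15.99% of the reads of the WT libraries and 9.98% and 11.5% of those of line 2. The higher genes held 2.39% and 2.32% of the WT reads and 3.43% and 3.25% of the line 2 reads. Counts that were whole in all 4 libraries, as they are where no read is divided among genes, were found for 74.96% of tested genes, 73.1% of the lower genes and 69.0% of the higher genes.

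Lower genes outnumbered higher genes at every level of expression, and the share of lower genes was largest at both ends. Tested genes were ranked by their mean deposited TPM over the 4 libraries and divided into 5 groups of equal size. In the lowest group, from 0.142 to 19.9 TPM, the same threshold gave 99 higher and 245 lower genes, so 12.6% were lower. In the next 3 groups, in order of rising level, the lower share was 6.85%, 5.66% and 6.28%, with 133, 110 and 122 genes lower and 61, 54 and 41 higher. In the highest group, from 112.6 to 5570 TPM, 48 genes were higher and 231 lower, a lower share of 11.9%. Large changes in either direction belonged mainly to rare transcripts. The lowest group held 73 of the 100 genes that were lower by a log2 of at least 1 and 41 of the 46 that were higher by as much. The highest group held 15 of the 100 and 0 of the 46. The SD of the log2 change over genes was 0.79 in the lowest group and 0.23 to 0.28 in the other groups. Whether low counts account for this wider spread was not tested. At a log2 change of at least 0.5, 338 genes were lower and 162 higher in the lowest group, and 161 were lower and 17 higher in the highest. The median log2 change stayed between 0.00 and 0.03 in each group.

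Among the 50 most abundant transcripts by mean TPM, 10 were lower and 0 higher at an unadjusted p below 0.05, where 8.66% and 3.12% of all tested genes were, and none passed an edgeR adjusted p below 0.05. The most abundant transcript of all, NO02G05460, had 18298 and 25165 reads in line 2 and 39753 and 40154 in WT. Its level was 4268 ± 801 TPM in line 2 and 6873 ± 127 TPM in WT (SD, n = 2), so the fitted log2 change was -0.73 ± 0.17 (SE, edgeR adjusted p = 0.142). Its neighbours by ID NO02G05440 and NO02G05470 were also among the 10. NO02G05440 had 7475 and 13005 reads in line 2 and 22693 and 24636 in WT, so the fitted log2 change was -1.06 ± 0.26 (edgeR adjusted p = 0.153), and NO02G05470 had a log2 change of -0.60 ± 0.18 (edgeR adjusted p = 0.243). The libraries of the 2 groups did not overlap for any of these 3 genes, and line 2 replicate 1 was the lowest library for each. The counts of all 3 were divided among genes, so the level of each single copy is uncertain. NO15G03200, at rank 4 of abundance, had whole counts, with 22349 and 26300 reads in line 2 and 32948 and 39390 in WT, so the fitted log2 change was -0.43 ± 0.16 (edgeR adjusted p = 0.333). These 4 genes were singled out after their values were seen, for their abundance among the 10.

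Lower genes were spread over the whole set of nuclear prefixes. All 30 prefixes had more lower than higher genes at an unadjusted p below 0.05. The lower share ran from 4.79% of tested genes in NO14 to 15.7% in NO18, and the higher share from 1.58% to 5.81%. Median log2 changes of the prefixes lay between -0.03 and 0.06. NO10 had 14 higher and 45 lower among its 383 tested genes, a lower share of 11.7%, and a median log2 change of 0.02.

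Changes kept against either WT library were defined as at least 2-fold in the same direction in all 4 ratios of a line 2 library to a WT library, with a mean of at least 5 CPM. Of 8917 genes, 4 were higher by this rule (0.0449%) and 11 were lower (0.123%). At 1.5-fold the numbers were 20 higher (0.224%) and 123 lower (1.38%), and at 3-fold they were 4 and 1. Leaving out a library relaxes the rule to 2 ratios. The numbers were then 5 higher and 16 lower without line 2 replicate 1, and 10 and 72 without line 2 replicate 2. They were 23 and 48 when WT replicate 1 was left out, and 15 and 20 when WT replicate 2 was. With the mean of both line 2 libraries set against 1 WT library, 28 genes were higher and 35 lower by 2-fold than WT replicate 1, and 50 were higher and 93 lower than WT replicate 2.

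NO18G02490 was the called gene with reads in both groups. It had 23.6 and 22.8 CPM in line 2 and 1.34 and 1.24 CPM in WT, from 337 and 326 reads against 22 and 19. Both line 2 libraries were far above both WT libraries, at 17.8 times the WT level, and the fitted log2 change was 4.16 ± 0.17 (SE, edgeR adjusted p = 0.00116). It was called in 16 of 17 alternative settings, the exception being limma-voom with a weight for each group (limma adjusted p = 0.110). In per-length terms it went from 1.93 ± 0.196 TPM in WT to 35.6 ± 1.80 TPM in line 2 (SD, n = 2).

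NO06G04580 had 222 and 262 reads in line 2 and 0 reads in both WT libraries. Against 3 reads over both WT libraries (0.0946 CPM), the count that a total of 0 allows, it was at least 179-fold higher (edgeR adjusted p = 0.00360). NO06G04750 had 87 and 98 reads in line 2 and 0 in WT, at least 68.4-fold higher (edgeR adjusted p = 0.0139). NO06G04620 had 58 and 50 reads in line 2 and 0 in WT, at least 39.9-fold higher (edgeR adjusted p = 0.0294). In line 2 their mean levels were low, 5.36 TPM for NO06G04580, 1.37 TPM for NO06G04620 and 0.284 TPM for NO06G04750. By mean TPM over line 2 and WT, NO06G04750 ranked 9712 of the 9712 tested genes. All 3 genes lie at the end of the NO06 numbering. There, 17 of the last 18 IDs had no WT read, and 10 of these 17 had reads in line 2. The exception was NO06G04710, with 19 and 40 reads in line 2 and 38 and 22 in WT. The 17 IDs, picked here for their lack of WT reads, together had 403 and 451 reads in line 2. In line 1 they had 1498 reads in each replicate, 3.36 times the scaled level of line 2. The 3 NO06 genes were not called when a line 2 library was left out, which leaves 1 library in that group, nor by limma-voom with a weight for each group or in a fit of line 2 and WT alone. On log2(TPM + 1), NO06G04620 and NO06G04750 were not called either (limma adjusted p = 0.148 and 0.531). On log2(TPM + 0.1), NO06G04750 again was not called (limma adjusted p = 0.175). Without line 2 replicate 1 the edgeR adjusted p was 0.0807 for NO06G04580, 0.2504 for NO06G04750 and 0.440 for NO06G04620. Without line 2 replicate 2 the edgeR adjusted p values were 0.0977 for NO06G04580, 0.178 for NO06G04750 and 0.236 for NO06G04620.

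Another pair of genes was more than 2-fold higher against either WT library without passing the adjusted threshold. NO13G01090 had 22.0 and 16.2 CPM in line 2 and 3.97 and 4.83 CPM in WT, so the fitted log2 change was 2.12 ± 0.21 (edgeR adjusted p = 0.0604). NO18G00300 had 12.6 and 10.6 CPM in line 2 and 1.77 and 2.87 CPM in WT, so the fitted log2 change was 2.32 ± 0.27 (edgeR adjusted p = 0.0941). In both genes the lower line 2 library was more than 3 times the higher WT library. The counts of NO18G00300 were divided among genes.

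NO27G01660 lay furthest below WT among the 11 lower genes. It had 2.59 and 5.25 CPM in line 2 and 29.3 and 23.5 CPM in WT, so the fitted log2 change was -2.75 ± 0.32 (SE, edgeR adjusted p = 0.0941). It was the single gene lower by 3-fold in all 4 ratios. Its count in line 2 replicate 1 was not whole, at 37.032 reads. NO17G02930 was by far the most abundant of the 11. It had 1526 and 1911 CPM in line 2 and 3850 and 4288 CPM in WT, from whole counts in all 4 libraries. Its level was 606 ± 84.6 TPM in line 2 and 1399 ± 28.9 TPM in WT (SD, n = 2), rank 118 of all tested genes. The log2 change was -1.24 ± 0.14 (edgeR adjusted p = 0.0941). These 2 genes were the lower genes with an edgeR adjusted p below 0.10, beside 7 higher ones.

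The other 9 lower genes of the set were rarer transcripts, with log2 changes from -1.63 to -1.05. NO14G00440 had 1.82 and 3.08 CPM in line 2 and 6.89 and 8.36 CPM in WT, and NO26G01260 had 3.92 and 4.20 CPM in line 2 and 13.1 and 10.1 CPM in WT. NO26G01560 had 8.61 and 6.79 CPM in line 2 against 24.4 and 17.9 CPM in WT. A pair of genes of prefix NO20 belonged to the set. NO20G01770 had 4.62 and 3.36 CPM in line 2 and 10.3 and 10.5 CPM in WT, while NO20G01440 had 8.19 and 9.24 CPM in line 2 and 20.4 and 22.9 CPM in WT. NO16G00140 had 9.52 and 9.73 CPM in line 2 and 24.8 and 22.5 CPM in WT, and NO10G03440 had 2.87 and 3.01 CPM in line 2 and 7.20 and 7.32 CPM in WT. The lowest WT library was at least 2 times the highest line 2 library in each, as the rule requires. The edgeR adjusted p was 0.128 for NO14G00440, 0.107 for NO16G00140 and 0.114 for the other 5. The counts of NO26G01260, NO16G00140 and NO10G03440 were divided among genes in 1 or more of the libraries. NO30G01280 and NO01G01010 completed the set, with log2 changes of -1.28 ± 0.20 and -1.05 ± 0.19.

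**Figure D3:**
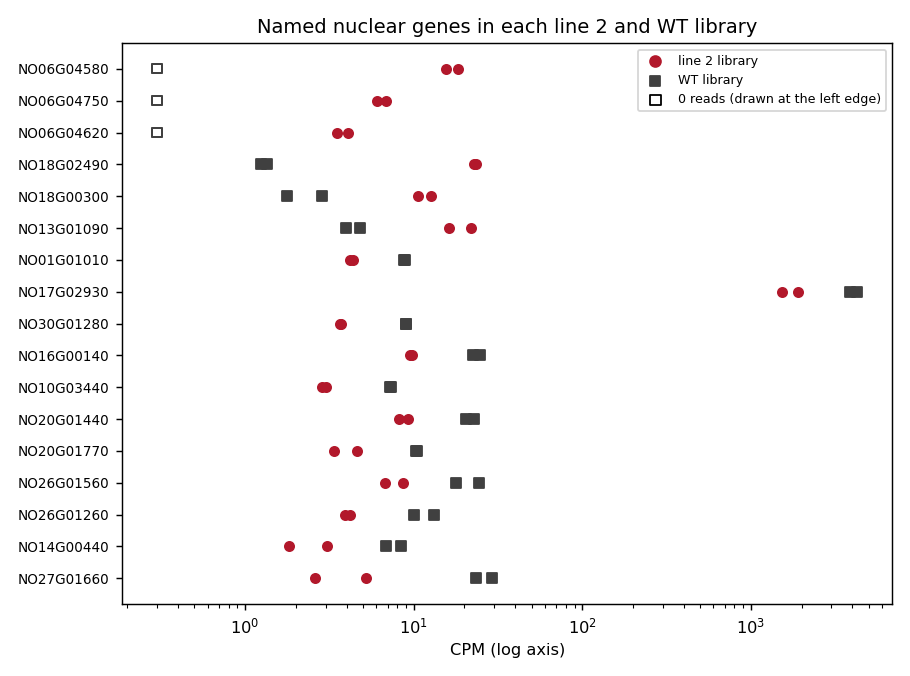
Points give the CPM (horizontal log axis) of each line 2 library (circles) and each WT library (squares) for the 4 called genes and the other genes that were at least 2-fold apart in all 4 ratios. Open squares at the left edge stand for 0 reads. The groups do not overlap for any gene shown, as the choice of genes requires, and NO17G02930 stands apart at 1526 CPM and above.

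A wider set was kept when the test itself was run without each WT library in turn. Without WT replicate 1, 589 genes were called higher and 952 lower. Without WT replicate 2, 232 were called higher and 419 lower. The genes called in both fits were 29 higher (0.299%) and 270 lower (2.78%), and 79 were called in opposite directions. The 29 made up 4.92% and 12.5% of the lists of higher genes, and the 270 made up 28.4% and 64.4% of the lists of lower genes. Both fits shared the line 2 and line 1 libraries, and each rested on 1 WT library that was assumed to vary like the other groups. The 270 lower genes had a median log2 change of -0.72 in the test with all libraries, with 230 past 1.5-fold and 30 past 2-fold. Their median level was 87.2 TPM, where that of all tested genes was 49.0 TPM, and 186 of them had whole counts. The 29 higher genes had a median log2 change of 0.79, with 10 past 2-fold and 20 with whole counts. The 270 held 10 of the 11 lower genes kept by the ratio rule, and the 29 held all 4 of the higher ones. Both rules use the same libraries and ask for a difference from each WT library, so this overlap is no separate support.

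Neighbouring IDs differed in the same direction in several places. A run was defined as at least 4 consecutive tested IDs of 1 prefix with a log2 change of at least 0.5 in the same direction, a size reached by 2.54% of 9677 nuclear genes upward and by 7.78% downward. The order of IDs is not stated to be the order along a chromosome. There were 8 runs with 43 tested IDs, and 7 of the runs, with 38 IDs, were lower in line 2. The number of runs was 9 without line 2 replicate 1, 18 without line 2 replicate 2, 15 when WT replicate 1 was left out and 9 when WT replicate 2 was. No gene of a lower run passed an edgeR adjusted p below 0.05. Of the 38 IDs in lower runs, 7 had counts whole to within 1e-06 in all 4 libraries, where 74.96% of all tested genes did. NO13G03450, NO13G03460 and NO19G00090 missed this tolerance by a small fraction of a read, so they were hardly divided. Where counts are divided among copies, neighbouring IDs are not separate measurements of a change.

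The longest run was NO10G03420 to NO10G03540, with 8 tested of 13 IDs and a median log2 change of -1.21. That median fell between NO10G03430 and NO10G03500, which carried nearly the same count. The libraries did not overlap at 7 of the 8 IDs. They did at the last, NO10G03540, with 0 and 10.8 reads in line 2 and 0 and 41.4 in WT. A second run, NO10G03570 to NO10G03600, followed the longest run with 4 IDs and a median of -1.18. The reads summed over the whole stretch, given below, had a smaller log2 change of -0.72. None of these 12 IDs had whole counts. NO10G03420 had 13408 and 15591 reads in line 2 and 26648 and 29193 in WT, so the fitted log2 change was -0.80 ± 0.14 (edgeR adjusted p = 0.114). NO10G03600 had 4715 and 5283 reads in line 2 and 11540 and 12905 in WT, so the fitted log2 change was -1.14 ± 0.14 (edgeR adjusted p = 0.107). Both line 2 libraries were below both WT libraries for each of them. NO10G03580, the most abundant ID of the stretch at 1374 TPM in WT and 886 TPM in line 2, had a log2 change of -0.67 ± 0.13 (edgeR adjusted p = 0.120).

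Several of the NO10 IDs carried nearly the same count. NO10G03430, NO10G03500, NO10G03570 and NO10G03590 differed from each other by at most 2.19% in any library, so they are best read as 1 measurement. Their sum was 3136 and 4884 reads in line 2 and 7524 and 12903 in WT, and the scaled sum had a log2 change of -1.21. NO10G03470 and NO10G03620 were within 2.83% of each other, and their sum had a log2 change of -0.86. NO10G03480 had 0 reads in both line 2 libraries and 34.2 and 75.7 in WT (edgeR adjusted p = 0.114). Its WT counts were divided among genes, so no least fold is given for it. NO10G03540 and NO10G03630 likewise had 0 reads in some libraries and divided counts in others, and the sum of the 3 IDs was 0 and 10.8 reads in line 2 against 34.2 and 195 in WT. The same sum was 278 and 41.2 reads in the replicates of line 1, so it varied widely within groups.

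Summed over NO10G03420 to NO10G03630, which spans 22 IDs of which 19 had reads and 16 were tested, line 2 had 65219 and 76964 reads and WT had 126895 and 132873. The stretch took 0.467% and 0.548% of the line 2 reads and 0.778% and 0.828% of the WT reads, 1.65-fold less in line 2, a log2 change of -0.72. The sum does not depend on how reads were divided within the stretch. Reads shared with IDs outside it were not tested. Not every ID within it was lower. NO10G03610 had 8274 and 8327 reads in line 2, between the 13213 and 5873 of the WT replicates, a log2 change of -0.03. The tested IDs on either side had log2 changes of 0.19 for NO10G03400 and 0.32 for NO10G03640.

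**Figure D4:**
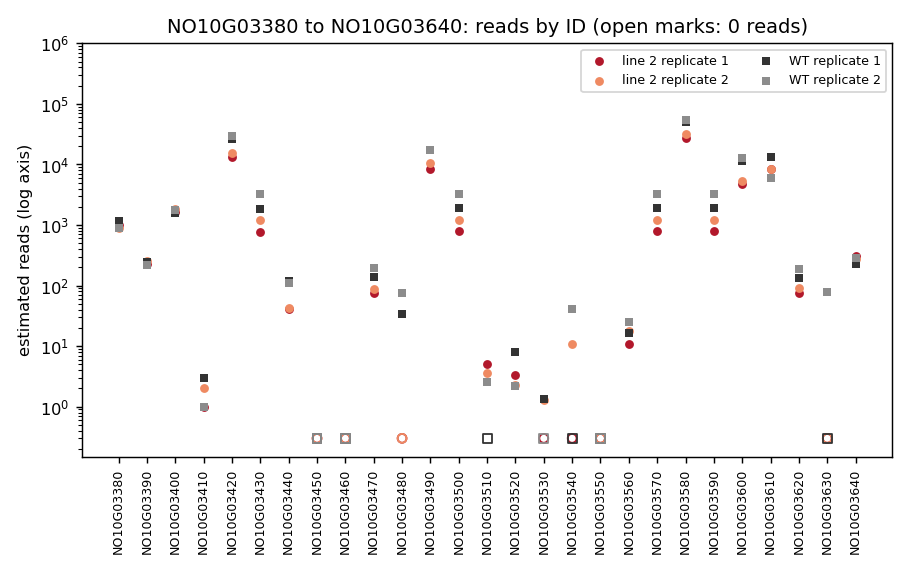
Estimated reads (vertical log axis) in the 2 line 2 libraries (circles) and the 2 WT libraries (squares) are shown for consecutive IDs from NO10G03380 to NO10G03640, with open marks for 0 reads. From NO10G03420 to NO10G03600 the line 2 points lie below the WT points at most IDs with over 100 reads. The same gap is seen at NO10G03620, and not at NO10G03610, NO10G03640 or the IDs before NO10G03420. The reads are not scaled to library size, and both WT libraries had more total reads than both line 2 libraries.

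The other lower runs had 4 to 7 tested IDs and median log2 changes from -0.89 to -0.65. NO18G01570 to NO18G01630 had 6 tested IDs with log2 changes from -1.02 to -0.76, all at an unadjusted p below 0.05 and none with whole counts. The sum over the run was 34401 and 43555 reads in line 2 and 77665 and 70780 in WT. Scaled to library size, it was 2408 and 3048 CPM in line 2 and 4738 and 4624 CPM in WT. NO06G00250 to NO06G00290 had 5 IDs with changes from -0.67 to -0.58, again with no whole counts, and NO06G00260, NO06G00270 and NO06G00280 were within 1.75% of each other in every library. NO13G03440 to NO13G03470 had 4 IDs with a median of -0.78, of which 2 were at an unadjusted p below 0.05. Of these IDs, NO13G03450 had 597 and 774 reads in line 2 and 1131 and 1403 in WT. NO13G03460 had 404.001 and 520 reads in line 2 and 814 and 980 in WT. Neither met the tolerance for whole counts, but both were within a small fraction of a read.

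Whole counts made up most of the reads in the runs NO19G00060 to NO19G00120 (52.7%) and NO21G02370 to NO21G02400 (85.3%). The NO13 run had 6.43% by the same strict count, with NO13G03450 and NO13G03460 close to whole. The NO19 run had 7 IDs with a median log2 change of -0.89. Its sum was 13407 and 13111 reads in line 2 and 25133 and 28610 in WT. Scaled to library size, this was 938 and 918 CPM in line 2 and 1533 and 1869 CPM in WT. In this run 5 of the 7 IDs were at an unadjusted p below 0.05. NO19G00110, with whole counts, had 4939 and 5159 reads in line 2 and 10216 and 11843 in WT, so the fitted log2 change was -0.98 ± 0.17 (edgeR adjusted p = 0.114). Here each line 2 library was below each WT library at all 7 IDs. The NO21 run had 4 IDs with a median of -0.66, all at an unadjusted p below 0.05. Its sum was 1641 and 1846 reads in line 2 and 3093 and 3176 in WT, or 115 and 129 CPM against 189 and 207 CPM.

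**Figure D5:**
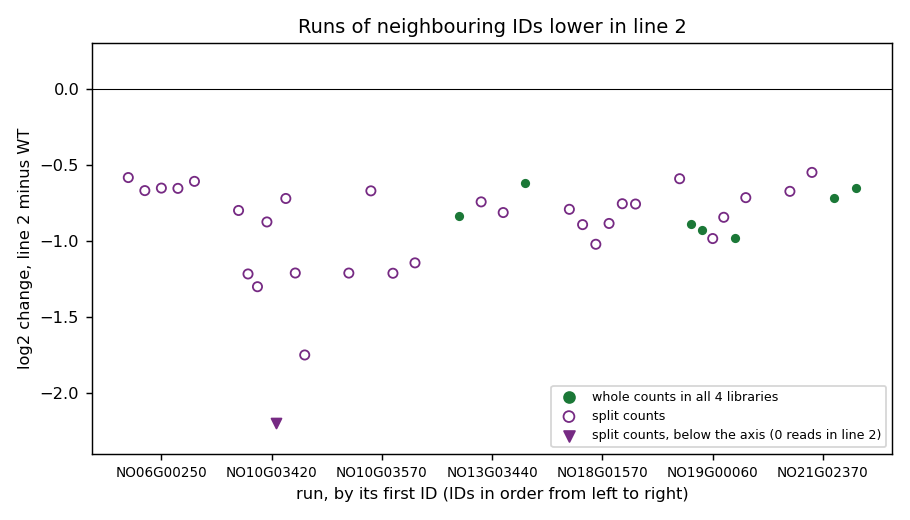
Points give the log2 change in line 2 against WT (vertical axis) of each tested ID of the 7 lower runs, in ID order within each run (horizontal axis). Filled points mark IDs with whole counts in all 4 libraries, and the triangle marks NO10G03480, with 0 reads in line 2. Open points mark the other IDs, of which NO13G03450, NO13G03460 and NO19G00090 were close to whole. All 38 IDs lie below -0.5, as the definition of a run requires, and 7 of them are filled.

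The single run of higher IDs was NO06G04580 to NO06G04690, with 5 tested of 12 IDs, all with 0 reads in WT. Its reads summed to 307 and 342 in line 2 and all counts were whole. It lies within the NO06 end given above.

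Of the 125 plastid genes, 25 passed the filter on low counts, and all plastid genes together had 1599 and 1608 reads in line 2 and 1935 and 1845 in WT. Scaled to library size, these sums were 112 and 113 CPM in line 2 and 118 and 121 CPM in WT. Of the 25, 18 were below 0 and 7 above, with a median log2 change of -0.77. edgeR called 0 of them, with 6 lower and 0 higher at an unadjusted p below 0.05, where 8.66% and 3.12% of all tested genes were. Line 2 lay below WT without overlap in 15 and above it in 3, where 18.0% and 17.4% of all tested genes did. DESeq2 called 0 of the named organelle genes and edgeR's likelihood ratio test called 2, cp-dnaK and cp-rpoA. With a filter of at least 1 CPM in 2 libraries the plastid median was -0.27, and without single libraries it lay between -0.66 and -0.47.

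The 6 lower plastid genes served several functions. For photosystem II, cp-psbC, which encodes a core antenna protein, had 46 and 30 reads in line 2 and 74 and 89 in WT, so the fitted log2 change was -0.95 ± 0.31 (edgeR adjusted p = 0.264). cp-psbD, which encodes a reaction centre protein, had 24 and 22 reads in line 2 and 58 and 37 in WT (edgeR adjusted p = 0.369). Not all photosystem II genes were lower. cp-psbA, for the other reaction centre protein and singled out after its values were seen, had 604 and 472 reads in line 2 and 421 and 387 in WT, without overlap and with a fitted log2 change of 0.56 ± 0.53 (edgeR adjusted p = 0.858). In the replicates of line 1, cp-psbA varied from 330 to 1227 reads. Over all 19 photosystem II genes the scaled sums were 48.0 and 37.3 CPM in line 2 and 34.9 and 35.2 CPM in WT. Most of these sums was cp-psbA itself, with 42.3 and 33.0 CPM in line 2 and 25.7 and 25.3 CPM in WT. The 3 other tested photosystem II genes had log2 changes below 0. The beta subunit gene of ATP synthase, cp-atpB, had 8 and 7 reads in line 2 and 24 and 15 in WT (edgeR adjusted p = 0.370). The gene of the alpha subunit of the plastid RNA polymerase, cp-rpoA, had 6 and 8 reads in line 2 and 23 in each WT library, so the fitted log2 change was -1.55 ± 0.46 (edgeR adjusted p = 0.233). cp-chlL, whose product works in the enzyme that makes chlorophyll precursor without light, had 5 and 3 reads in line 2 and 12 and 18 in WT (edgeR adjusted p = 0.414). cp-dnaK, for a chaperone of the Hsp70 family, had 59 and 114 reads in line 2 and 286 and 161 in WT, so the fitted log2 change was -1.21 ± 0.37 (edgeR adjusted p = 0.247). Each of these genes had both line 2 libraries below both WT libraries, at depths where a few reads move the change.

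Of the 35 mitochondrial genes, 10 were tested, 5 below 0 and 5 above, with a median log2 change of 0.03 that ranged from -0.58 to 0.27 without single libraries. mt-nad7, for a subunit of respiratory complex I, was the mitochondrial gene at an unadjusted p below 0.05. It had 8 and 12 reads in line 2 and 26 and 29 in WT, so the fitted log2 change was -1.30 ± 0.46 (edgeR adjusted p = 0.312).

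Line 2 was tested directly against line 1 in the same model. No gene was called by edgeR's quasi-likelihood test at an adjusted p below 0.05, with 364 at an unadjusted p below 0.05. The smallest edgeR adjusted p among the named genes was 0.274. DESeq2, edgeR's likelihood ratio test and limma-voom with a weight for each group each called 3 of the named genes, as did the fits without WT replicate 1 or without WT replicate 2. These were the NO06 end genes, which were lower in line 2 than in line 1. For NO06G04580 the log2 difference of line 2 from line 1 was -1.64, and for NO06G04620 it was -2.09. Both comparisons with WT share the same WT libraries, so the values of the lines are given side by side only. NO18G02490 had log2 changes of 4.16 in line 2 and 4.70 in line 1, NO27G01660 had -2.75 and -1.93, and NO14G00440 had -1.63 and -3.01.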

How the data were processed

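RNA-seq libraries of line 2 and WT were compared. The authors deposited expected counts per gene, of which 20.1% of values in the table were not whole (tolerance 1e-06), and TPM for the same genes, summing to 1000000 per library. STAR and edgeR are named, without versions, per the submitters' processing notes. Which program counted, on which genome build and annotation, is not given in the sources used here. Such counts divide reads among similar genes, so single copies are uncertain. The NEBNext Ultra kit, named in the labels, keeps no strand information, so overlapping and antisense genes cannot be told apart. Titles number the replicates 1 and 2, while the descriptions give 1 and 3 for line 2 and 2 and 3 for WT; the titles were followed. All columns were matched by description (0 unmapped).

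Expected counts were rounded and tested with edgeR 4.0.16 in R 4.3.3 (TMM factors, default filter on low counts, robust quasi-likelihood fit of 3 groups, 3 residual degrees of freedom), and p-values were adjusted by Benjamini-Hochberg over 9712 genes. The script was tested on simulated data. Alternatives used DESeq2 1.42.0, limma 3.58.1 and log2(TPM + 1) or log2(TPM + 0.1), other scalings and filters, a replicate block, only line 2 and WT, and leaving out each library. Where WT had 0 reads, folds are bounds against 3 reads over the group, covering counting error only. Named genes were those called, the 8 most changed and the 4 most abundant genes in each direction among those past 2-fold in all 4 ratios at 5 CPM or more, genes of runs, and organelle genes at an unadjusted p below 0.05. Of gene IDs, 160 of 160 organelle symbols and 0 of 10333 nuclear IDs matched the RefSeq gene table used here. Genes, rules and lists were chosen with earlier results of these data known.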

Additional observations from a re-analysis of the deposited data

How the results depend on the processing

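Over 22 named genes and 366 gene-setting values, 301 kept direction and side of the threshold, 17 lost and 48 gained the call, and 0 reversed. The 4 calls (4 higher, 0 lower) became 374 (36, 338) with DESeq2, 436 (55, 381) with the likelihood ratio test, 0 (0, 0) with voom weights by group, 1 (1, 0) with only line 2 and WT, 9 (8, 1) with log2(TPM + 0.1), and 1 to 1541 (1 to 589 higher, 0 to 952 lower) without single libraries. The cause was not tested. Counts at an unadjusted p below 0.05 were 303 higher and 841 lower. The higher count was 139 with voom weights, 163 with only line 2 and WT, 192 with only genes of whole counts (an alternative chosen after seeing the data), and 109 to 1469 without single libraries, where the lower count was 426 to 1723. The plastid median of -0.77 was -0.27 with at least 1 CPM in 2 libraries (fewer genes tested), -0.43 with log2(TPM + 1) and -0.66 to -0.47 without single libraries, and the mitochondrial median of 0.03 was -0.58 to 0.27. Named genes called between the lines numbered 0, and 3 with DESeq2, the likelihood ratio test and voom weights, and 0 to 3 without single libraries. Kept genes (4 higher, 11 lower) numbered 20 and 123 at 1.5-fold, 4 and 1 at 3-fold, 8 and 19 at 1 CPM, and 5 to 23 and 16 to 72 without single libraries. The 8 runs became 19 at a log2 of 0.3, 1 at a log2 of 1, 24 with at least 3 IDs, 3 with at least 6 IDs, and 9 to 18 without single libraries. With the replicate number of the titles as a block, 3 genes were called, without NO06G04620 (edgeR adjusted p = 0.0695). In that fit 402 genes were higher and 902 lower at an unadjusted p below 0.05. Deviations of libraries with the same title number correlated at 0.38 (line 1 and line 2), 0.20 (line 1 and WT) and 0.54 (line 2 and WT) over 7565 genes. The descriptions number the replicates otherwise, and a block by those numbers was not fitted. With only 2 title numbers in each group and no shared origin in the labels, the title numbers were not taken as pairs. Low depth limits the organelle values.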
